A study of Homo sapiens with 2 samples.

Results

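CDX1, CDX2, HNF4A, GATA6, FOXA1, FOXA2 and ELF3 are transcription factors that set or maintain the identity of gut endoderm and colon epithelium. They were taken by gene symbol from the annotation of the array platform. Of these 7 genes, 6 had a named probe set, out of 17687 named genes in all. No probe set in the annotation table used carries the symbol HNF4A, so its level was not analysed here. The cells were SW48, an established human colorectal cancer line, given 1 small interfering RNA (siRNA) against YY1 (siYY1) or a negative control siRNA (siControl), each at 5 nmol/L, and cultured for 3 days before total RNA was taken. YY1, a zinc finger protein, switches some target genes on and others off. There was 1 whole-transcript array for siYY1 and 1 for siControl, and the study asked which genes differ after the knockdown. Without replicate arrays nothing could be tested, so each difference describes these arrays and the number of arrays limits its precision. YY1 itself was not analysed here, so neither the depth of the knockdown nor the array labels could be checked.

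CDX1 and CDX2 are homeodomain proteins of the caudal family. In gut development, CDX2 directs posterior endoderm toward an intestinal fate, and it goes on maintaining that fate in the adult. HNF4A, a nuclear receptor, and GATA6, a zinc finger protein that binds GATA motifs, act with CDX2 at the enhancers of enterocyte genes. FOXA1 and FOXA2 are forkhead proteins that can bind closed chromatin and open it for other factors, and ELF3 is an ETS factor largely restricted to epithelia.

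None of the 6 measured factors differed by 1.5-fold between siYY1 and siControl. RNA was taken from whole cultures, so a change in the number of expressing cells and a change in RNA per cell cannot be told apart. CDX2 and FOXA1 were the factors bright enough to pass the expression filter, and both were slightly higher in siYY1, CDX2 by 1.11-fold and FOXA1 by 1.07-fold. GATA6 lay just under the filter and was 1.18-fold higher, while CDX1, FOXA2 and ELF3 were dim on both arrays. CDX1 was the single factor that was lower in siYY1, by 1.31-fold at a level where nothing shows the signal to exceed background. The filter required a mean over both arrays of at least 7.54, the median of all named genes, on the scale of the deposited values, which were taken as log2. All differences are siYY1 minus siControl on that scale.

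In the background, 269 of the 8844 genes that passed the filter (3.04%) exceeded 1.5-fold on the higher side in siYY1 and 334 (3.78%) on the lower side, 6.82% in all. The share past 1.5-fold was 8.94% among the 8843 named genes under the filter and 7.88% among all named genes. At such shares a group of 6 genes with 0 past 1.5-fold is close to the background, and the count is no result about these factors as a group. Their median difference was 0.12, against 0.01 over all named genes. The 6 differences ran from -0.39 to 0.23, with 5 above 0 and 1 below. Over all 17687 named genes, 9197 were above 0 and 8450 below. Of the 6 factors, 4 lay under the filter, and a shared direction was not tested.

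**Figure D1:**
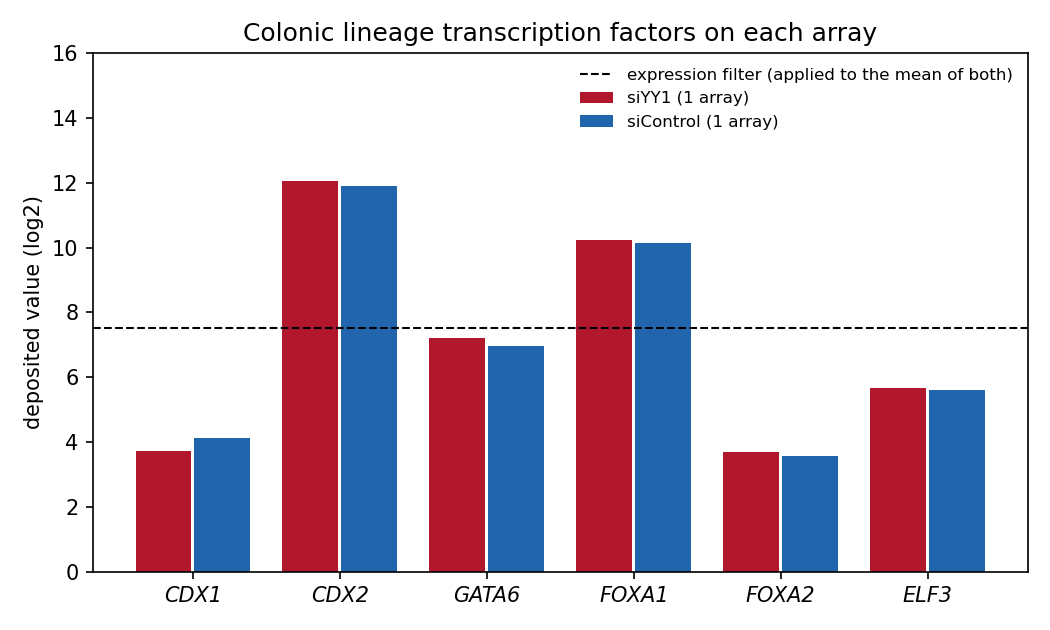
Deposited log2 value (vertical axis) of the 6 measured lineage factors on the siYY1 array (red) and the siControl array (blue), 1 array each and so without error bars; the dashed line is the expression filter at 7.54. CDX2 and FOXA1 stand above the line on both arrays, the other genes stand below it on both, and the bars of each pair differ by at most 0.39.

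CDX2 had a value of 12.06 in siYY1 and 11.91 in siControl. The value in siYY1 was the higher one, by 0.16. Of the genes that passed the filter, 56.6% differed by at least as much in either direction, so the difference of CDX2 was smaller than that of most genes of these arrays. Its promoter is shown because CDX2 is the factor most closely tied to colonic identity, and because CDX, FOXA and GATA proteins are members of this group. The sequence is RefSeq's for GRCh38.p14, at chr13:27969316-27969565 on the minus strand, and covers the 250 bases before the annotated start. Capitals mark matches to the motifs searched.
CDX2: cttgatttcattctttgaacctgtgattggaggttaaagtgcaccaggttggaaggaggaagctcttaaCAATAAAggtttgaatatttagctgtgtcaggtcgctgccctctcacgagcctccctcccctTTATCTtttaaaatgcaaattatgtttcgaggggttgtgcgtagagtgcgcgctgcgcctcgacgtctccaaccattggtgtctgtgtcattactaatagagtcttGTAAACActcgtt
Read 5′ to 3′, the capitals are a CDX motif (CAATAAA) that begins 181 bases before the start, a GATA motif (AGATAA, here on the opposite strand) that begins 119 bases before it, and a FOXA motif (TGTTTAC, on the opposite strand) that begins 13 bases before it. Among all 35116 RefSeq promoters, a CDX match occurred in 3.67% of the same 250-base windows, a GATA match in 9.17% and a FOXA match in 2.98%. A match describes the letters and is not evidence of binding in SW48 cells.

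FOXA1 had a value of 10.23 in siYY1 and 10.14 in siControl. The value in siYY1 was higher by 0.10, and 71.7% of the genes that passed the filter differed by at least as much. The promoter of FOXA1 is given for contrast with that of CDX2, as the other factor above the filter. It lies at chr14:37595250-37595499 on the minus strand of GRCh38.p14, again the 250 bases before the start, and is all in lower case because no searched motif matched.
FOXA1: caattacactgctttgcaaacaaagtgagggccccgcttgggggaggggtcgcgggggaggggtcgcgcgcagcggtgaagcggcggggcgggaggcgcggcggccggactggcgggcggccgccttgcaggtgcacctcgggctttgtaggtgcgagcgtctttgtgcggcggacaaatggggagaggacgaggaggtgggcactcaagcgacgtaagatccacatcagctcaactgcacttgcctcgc

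The motif most relevant to the knockdown, the extended YY1 core CCATNTT on either strand, was in none of the 6 promoter windows that RefSeq gave for 5 of the factors, which are CDX2, FOXA1, GATA6, ELF3 and HNF4A, the last with 2 windows. It occurred in 11.6% of all 35116 windows. The absence of these letters in a short window says nothing of YY1 itself. CAAAGTC, part of the HNF4 site (2.91% of all windows), and GGAAGT, a core of ETS sites (19.5%), were also in none of the 6 windows. One of the HNF4A windows, at chr20:44355449-44355698, held a GATA match that begins 26 bases before the start. CDX1 and FOXA2 had no promoter entry.

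GATA6 had a value of 7.20 in siYY1 and 6.97 in siControl, both a little below the filter. The value in siYY1 was higher by 0.23, the largest positive difference of the 6 factors. Of the named genes under the filter, 45.8% differed by at least as much.

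ELF3 had a value of 5.68 in siYY1 and 5.61 in siControl. This was the smallest difference of the group, at 0.07, and 82.6% of the genes under the filter differed by at least as much. FOXA2, the paralog of FOXA1, had a value of 3.71 in siYY1 and 3.57 in siControl, a difference of 0.14 that 65.0% of the genes under the filter reached. CDX1, the paralog of CDX2, had a value of 3.73 in siYY1 and 4.12 in siControl, a difference of -0.39 that 22.9% of them reached. Both CDX1 values lay far below the filter, so CDX1 and CDX2 differed in opposite directions but no measured level of CDX1 stands behind its difference. Probe sets differ in their response, so the level of a factor was not set against that of another, and the arrays do not show which factor is the more abundant.

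**Figure D2:**
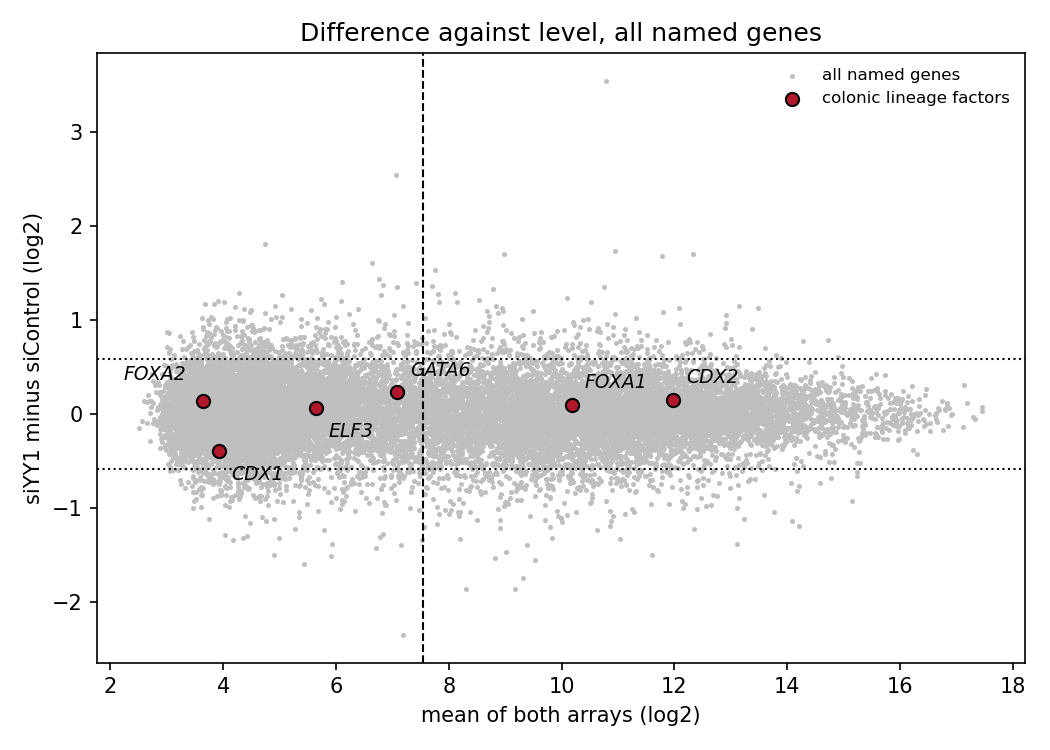
Difference between the arrays (vertical axis, siYY1 minus siControl, log2) against the mean of both arrays (horizontal axis, log2) for all 17687 named genes in grey and the 6 lineage factors in red; dotted lines mark 1.5-fold and the dashed line the expression filter. All 6 factors lie between the dotted lines, within the band formed by the other genes.

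Relatives of the factors in the same families were examined next. Of 13 relatives, 6 passed the filter, and 0 of these were past 1.5-fold in either direction. Over all 8844 genes that passed, 6.82% were past 1.5-fold and 4454 were higher. For 6 genes a count of 0 is near that background and is no result about the relatives. Of the relatives that passed, 4 were higher and 2 lower, with a median of 0.08, against 0.00 over all genes that passed. Of these 6, ELF5, an ETS factor close to ELF3, had the most negative difference, with 7.59 in siYY1 and 7.97 in siControl (-0.38). ELF5 lay close to the filter, 0.05 above it in siYY1 and 0.43 above it in siControl. HNF4G, the paralog of HNF4A that overlaps with it in enterocytes, had 10.34 in siYY1 and 10.66 in siControl (-0.33). In the other direction, ELF2 had 10.33 in siYY1 and 10.08 in siControl (0.25), and EHF, a further epithelial ETS factor, 15.72 in siYY1 and 15.47 in siControl (0.24). ELF4 (0.14) and ELF1 (0.01) differed less. The other GATA genes, FOXA3 and CDX4 were under the filter on the mean of both arrays. Of these 7 dim relatives, CDX4 was past 1.5-fold, at 4.88 in siYY1 and 5.50 in siControl (-0.62), both far below the filter.

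Other transcription factors of gut epithelium gave a similar picture. Of 28 listed, 23 had a named probe set and 11 passed the filter, 5 of them higher and 6 lower in siYY1, with a median of -0.02. Of these 11, MYB, a factor of colonic progenitor cells, was the single gene past 1.5-fold, at 11.37 in siYY1 and 11.96 in siControl. Its difference of -0.59 corresponds to 1.503-fold, at the edge of the threshold. KLF5, a factor of crypt proliferation, was at 14.98 in siYY1 and 15.30 in siControl (-0.32). The fatty acid receptor gene PPARA had the largest positive difference of the 11, with 8.82 in siYY1 and 8.29 in siControl (0.52). PRDM1 (0.15) followed. A share of 1 in 11 is near the background of 6.82%. Among the dim factors of the list, NR5A2 was past 1.5-fold, at 4.90 in siYY1 and 4.21 in siControl (0.69), both far below the filter.

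Genes that CDX2 and its partners are known to drive in intestine were mostly dim. Of 25 listed, 23 had a named probe set and 5 passed the filter. All 5 were lower in siYY1, with a median of -0.20 against 0.00 over all genes that passed. Of all 8844 genes that passed, 4390 were lower, and 6.82% were past 1.5-fold in either direction. DPP4, a brush border peptidase, was at 9.44 in siYY1 and 10.54 in siControl, 2.15-fold lower, and no other gene of these 5 was past 1.5-fold. In either direction, 0.565% of the genes that passed the filter differed by at least as much. MUC13, a membrane mucin, was at 10.68 in siYY1 and 11.11 in siControl (-0.43), and PLS1, which bundles actin in microvilli, at 11.73 in siYY1 and 11.93 in siControl (-0.20). CDH17, the liver-intestine cadherin and a direct CDX2 target, was at 10.63 in siYY1 and 10.65 in siControl (-0.02), and HEPH, an iron oxidase of enterocytes, differed by -0.05. Both lay close to 0: 95.0% of the genes that passed differed by at least as much as CDH17, and 86.6% by at least as much as HEPH. With the 18 dim genes of the list added, the median was 0.05, with 12 genes higher and 11 lower. The signs over the whole list were thus mixed. The 18 dim genes were not shown to exceed background, so their signs cannot tell whether the genes of the list share a direction. A shared direction of the 5 brighter genes was not tested.

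Genes linked to the other factors were fewer. Of 7 genes linked to ELF3, the TGF-beta receptor gene TGFBR2, a known ELF3 target, was at 11.59 in siYY1 and 11.87 in siControl (-0.28), and the claudin gene CLDN7 at 13.77 in siYY1 and 13.90 in siControl (-0.13). The other 5 were under the filter. Of the 7, 0 were past 1.5-fold, which is near the background of 7.88% over all named genes. Of 16 measured metabolic genes linked to HNF4A in liver and gut, APOA4, an apolipoprotein of enterocytes, was the single gene above the filter, at 8.77 in siYY1 and 8.72 in siControl (0.05).

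**Figure D3:**
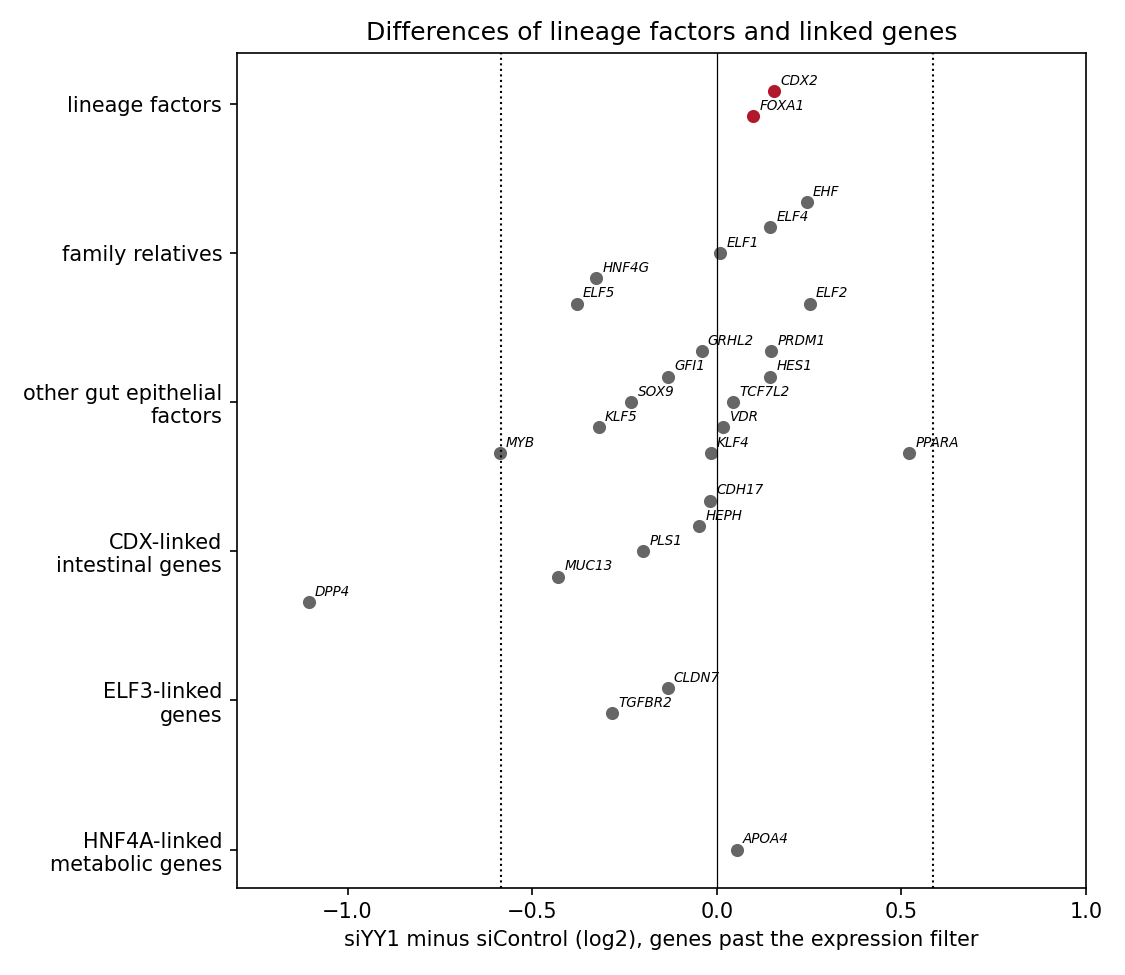
Difference between the arrays (horizontal axis, siYY1 minus siControl, log2) of each gene that passed the expression filter, in rows for the lineage factors (red) and the lists of relatives and linked genes (grey); the vertical spread within a row only separates labels, and dotted lines mark 1.5-fold. CDX2 and FOXA1 lie close to 0, DPP4 at -1.11 lies far to the left, and MYB lies on the left dotted line.

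The epithelial identity of the cells was checked with 10 markers of colon epithelium. 7 of them passed the filter. Among these were the adhesion protein gene EPCAM, at 16.24 in siYY1 and 16.04 in siControl, and the keratin gene KRT19, at 14.33 in siYY1 and 14.67 in siControl. Of these 7 markers, 0 were past 1.5-fold, against 6.82% of all genes that passed. For 7 genes this count is near the background and is no result about the markers. The intestinal markers VIL1, LGALS4 and GPA33 were under the filter. None of the 17 measured fibroblast, leukocyte, endothelial and hepatocyte markers passed the filter, and their values ran up to 5.79 in siYY1 and 5.97 in siControl. The actin gene ACTB, a common reference, was at 13.85 in siYY1 and 13.74 in siControl, and the glycolysis gene GAPDH at 17.28 in siYY1 and 17.30 in siControl. The values of EPCAM and GAPDH exceed 16, the most a 16-bit scanner can record in log2, so the sizes of their differences are uncertain.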

How the data were processed

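Total RNA was hybridised as biotin-labelled sense cDNA to whole-transcript GeneChips, per the labels' protocols. The value table the authors deposited holds a summary per probe set, used here as log2 because it ran from 2.32 to 17.97 in siYY1 and from 2.46 to 17.90 in siControl. The top of this range exceeds 16, the log2 limit of a 16-bit scanner, at 107 probe sets in siYY1 and 112 in siControl, so the range supports a log scale without settling its base or any rescaling. No source used here gives the software, normalization, log base or genome build. Under another base each fold would differ. Ranked from low to high, the columns never lay more than 0.153 apart. Of 21448 probe sets, 17709 had 1 symbol in GEO's platform annotation, checked by Entrez identifier against RefSeq's GRCh38.p14 table (0 symbols changed), 0 had several and 3739 had none. Values of a gene's several probe sets (20 genes) were averaged.

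Genes with a mean over both arrays at or above 7.54 were kept. A difference of at least 1.5-fold took the place of a test. The counting was run on simulated shifts well past that threshold, which checks the code and not values near 1.5-fold. The 2 arrays give 1 difference per gene, so no likeness between genes was computed. Named genes were the 7 factors, up to 2 kept genes at each end of every list, every kept list gene past 1.5-fold, marker genes, and ACTB and GAPDH; a few more are named to complete a list. The factors and lists were chosen with earlier results of these data known. Alternatives were thresholds of 1.25-fold and 2-fold, no filter or one at the 75th percentile, quantile normalization, median and lowess centring (fraction 0.3), and the brightest probe set of each gene. Promoter windows were the 250 bases before each start in RefSeq's table. Python 3.11.15, numpy 2.4.6, pandas 2.3.3, statsmodels 0.14.6 and matplotlib 3.10.9 were used.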

Additional observations from a re-analysis of the deposited data

How the results depend on the processing

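No paired analysis was possible because each group has 1 array. Values that moved by less than 0.1 (log2) and counts within 1.5 times were taken as unchanged, which held for 104 of 115 recomputed values. Part of this was fixed in advance. The filters and the choice of probe set cannot alter the difference of a gene with 1 probe set. A change of sign was looked for only in values past 1.5-fold, and 0 were found. The smaller medians of the family relatives, other gut factors and CDX-linked genes did change sign with no filter. Over all the settings run, CDX2 ran from 0.14 to 0.16, FOXA1 from 0.08 to 0.13, GATA6 from 0.21 to 0.24, FOXA2 from 0.12 to 0.14, ELF3 from 0.02 to 0.07 and CDX1 from -0.41 to -0.39. The number of lineage factors past the fold threshold was 0 in each direction under every alternative, though the difference of CDX1 exceeded the lower of the alternative thresholds and was left out of the count by the filter. The stricter filter left CDX2 alone of the factors. MYB ran from -0.60 to -0.59 and DPP4 from -1.12 to -1.08, both past 1.5-fold throughout. Over all kept genes, the counts higher and lower in siYY1 were 1082 and 1192 at the lower threshold, 33 and 51 at 2-fold, 704 and 690 with no filter, and 87 and 117 with the stricter filter. With no filter the median of the family relatives was -0.026 and that of the CDX-linked genes 0.053, and with the stricter filter the CDX-linked genes had -0.31, since each filter changes which genes enter. Median centring shifted all differences by 0.01, and lowess centring by between -0.02 and 0.05.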

Other observations

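Gastric and foregut genes, and genes of the secretory cells of gut epithelium, were dim on both arrays. None of the 16 gastric and foregut genes passed the filter, among them the foregut factor SOX2 (6.55 in siYY1 and 6.39 in siControl) and the stomach claudin gene CLDN18 (4.60 in siYY1 and 4.92 in siControl), and 0 of the 16 were past 1.5-fold. None of the 14 measured secretory genes passed it either, among them the goblet mucin gene MUC2 (3.98 in siYY1 and 3.91 in siControl) and the goblet factor SPDEF (3.28 in siYY1 and 3.13 in siControl). Of the 105 listed genes that were measured and lay under the filter, 9 (8.57%) were past 1.5-fold, 5 higher and 4 lower in siYY1, against 8.94% of all named genes under the filter. The higher ones were LYZ (difference 0.98), APOA2 (0.92), PECAM1 (0.76), NR5A2 (0.69) and CLCA1 (0.59), and the lower ones were CA1 (-0.66), ZG16 (-0.65), CDX4 (-0.62) and CDH5 (-0.62). None of these levels was shown to exceed background. The 4 genes named before them and these 9 were chosen after their values were seen.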
